A study of Danio rerio with 2 samples.

Results

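The water channel genes aqp8a.1 (ENSDARG00000045141) and aqp1a.1 (ENSDARG00000023713) were followed through single cells from zebrafish tails at 48 h post fertilization. They were taken by symbol, have 1 feature each in the deposited matrices, and are 2 of the 26764 gene symbols and 2 of the 16 aquaporin family features listed. The fish were of strain AB and carried a TagRFP reporter driven by isl1 regulatory sequence, TgBAC(isl1:TagRFP), together with an EGFP reporter driven by dab2 regulatory sequence, Tg(dab2:EGFP), and both transgenes were present in every cell studied. The library labelled isl1-derived was made from live cells sorted as TagRFP+/EGFP+, and the library labelled other from cells sorted as TagRFP-/EGFP+. The sort thus sets tail endothelium marked by the isl1 reporter against the rest of the EGFP+ endothelium. Each group is 1 library from dissociated tails posterior to the yolk end, so no difference below has a replicate check, and the cells of a library are not replicates.

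Aquaporins are membrane proteins that form pores for water, and in some members for small solutes such as glycerol. Aquaporin-1 is known in mammals as the water channel of endothelium and red blood cells, and in zebrafish aqp1a.1 and aqp8a.1 are known as genes of developing vessels, where both are linked to the movement of sprouting cells. Within the endothelium esm1 encodes endocan, a secreted proteoglycan typical of sprouting tip cells, while stab2 encodes a hyaluronan scavenger receptor typical of veins and lymphatic vessels.

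The RNA of the sorted reporter went against the labels, and so do the file names, so each library is named below as labelled and every direction between them carries this conflict. In endothelial cells TagRFP RNA stood at 5.59 CPM (counts of a gene per 1000000 UMIs) in the library labelled isl1-derived and at 26.6 CPM in the library labelled other, and isl1 RNA at 2.32 and 19.6 CPM. The library labelled other also held 24 cells scoring for neural genes, with TagRFP at 3008 CPM and isl1 at 3153 CPM. The library labelled isl1-derived held 0 such cells. The part of the neural cells in the endothelial values was not tested. After filtering, 2022 and 704 cells remained, with medians of 9780 and 6616 UMIs, and the 2 libraries shared 0 cell barcodes. Endothelial cells were those with at least 10 UMIs per 10000 in the sum of cdh5, tie1, egfl7 and clec14a, which gave 1375 cells (68.0%) and 583 cells (82.8%). This is a range of a score and not a cell type by itself, and 71 and 20 cells lay just under the limit, at 5 to 10 UMIs per 10000, against 104 and 34 just over it, at 10 to 15. All 9 endothelial markers were detected in the cells kept.

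Both genes were among the most abundant transcripts in the summed UMIs of the tail endothelium. The library labelled isl1-derived had 69210 endothelial UMIs of aqp8a.1, or 5949 CPM (95% exact Poisson interval 5904 to 5993), and aqp1a.1 had 71477 UMIs, or 6144 CPM (6099 to 6189). They were 13th and 11th of the 21714 genes with a UMI there. The library labelled other gave 3044 CPM (2991 to 3098) for aqp8a.1 and 3385 CPM (3330 to 3442) for aqp1a.1, ranks 47 and 32. In stab2-high cells (defined below), the largest group of each library, their ranks were lower. There aqp8a.1 and aqp1a.1 ranked 97 and 86 in the library labelled isl1-derived, and 133 and 97 in the library labelled other. Intervals here and below cover counting error only. UMIs tag molecules at their 3′ end and do not scale with transcript length, but capture may differ between genes, so shifts of the aqp1a.1 to aqp8a.1 ratio between cell groups are given weight rather than the ratio itself.

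The other 14 aquaporin features were scarce beside them. Together aqp8a.1 and aqp1a.1 made up 99.4% and 98.6% of the family's endothelial UMIs in the libraries labelled isl1-derived and other. Next came aqp7, an aquaglyceroporin gene, with 44.6 and 64.7 CPM, then aqp11 with 14.2 and 20.4 CPM, and aqp1a.2, the neighbour of aqp1a.1 in the RefSeq gene order, with 9.80 and 4.55 CPM. The neighbour of aqp8a.1 in that order, aqp8a.2, had 14 and 0 UMIs. The skin aquaporin gene aqp3a had 9 and 2 endothelial UMIs but stood at 833 CPM in the 20 epidermal cells of the library labelled isl1-derived. Thus 13 of the 16 features had under 200 endothelial UMIs in each library. Of these minor members aqp7 went opposite to the abundant pair, with 10.8 CPM in esm1-high and 78.0 CPM in stab2-high cells of the library labelled isl1-derived (groups defined below), whereas aqp1a.2 went the same way at 30.3 and 2.33 CPM.

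Levels were spread over a wide range from cell to cell rather than being set to a common value. Per endothelial cell of the library labelled isl1-derived, aqp8a.1 ran from 0 through a median of 15.8 to 761 UMIs per 10000, and aqp1a.1 from 0 through 27.4 to 457. The corresponding values in the library labelled other were 0, 3.30 and 699 for aqp8a.1 and 0, 7.73 and 297 for aqp1a.1. At least 100 UMIs per 10000 of aqp8a.1 were found in 23.2% and 8.06% of endothelial cells, and under 1 in 24.0% and 31.9%. For aqp1a.1 these shares were 27.4% and 11.7% at the top and 21.1% and 27.1% at the bottom. Each of the 3 steps between, 1 to 5, 5 to 20 and 20 to 100 UMIs per 10000, held 9.53% to 26.3% of the cells for either gene in either library. At the median endothelial depths of 7925 and 6433 UMIs a single UMI falls in the step of 1 to 5. Cells in that step therefore cannot be told from background. The filling was uneven in the library labelled isl1-derived, where 5 to 20 was the least filled step for both genes. It held 11.1% for aqp8a.1 and 9.53% for aqp1a.1, against 24.9% and 26.3% at 20 to 100. In the library labelled other the step of 5 to 20 held 17.7% and 18.7%.

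Summed over all endothelial cells, both members stood higher where the label reads isl1-derived. The ratio over the library labelled other was 1.95 (exact binomial interval 1.92 to 1.99) for aqp8a.1 and 1.81 (1.78 to 1.85) for aqp1a.1. Both were past 1.5-fold, as were 5.13% of the 9498 genes measured. The libraries also differed in make-up, and the library ratios were smaller within cells of like stab2 level. Since stab2 itself ran opposite to both aquaporins over cells, the part of make-up in the library ratio was not tested by this split. In the 4 bins of stab2, at under 1, 1 to 5, 5 to 20 and at least 20 UMIs per 10000, the library ratio of aqp8a.1 was 0.919, 0.909, 1.07 and 1.09, and that of aqp1a.1 was 1.17, 0.969, 0.864 and 0.921. Across the bins of esm1 with the same limits, aqp8a.1 gave 1.93, 1.18, 1.60 and 0.910, and aqp1a.1 gave 1.48, 1.08, 0.963 and 0.964. So in the lowest esm1 bin, with 886 and 484 cells, the sums of both members differed between the libraries, and aqp8a.1 had 1.60 at 5 to 20 as well. Within that lowest bin stab2 also differed, with 294 and 292 cells at 20 or more. Split there by the 4 stab2 bins, aqp8a.1 stood at 9219, 6238, 2396 and 777 CPM in the library labelled isl1-derived. The library labelled other had 10646, 7400, 2428 and 573 CPM. For aqp1a.1 the levels were 5164, 3750, 2079 and 972 CPM, and 3760, 4417, 2826 and 975 CPM.

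The make-up itself was as follows, with a gene called high at 5 or more UMIs per 10000. Cells high in esm1 alone (esm1-high) were 275 of the 1375 endothelial cells in the library labelled isl1-derived and 37 of 583 (6.35%) in the library labelled other. Cells low in both genes (both-low) were 36.6% (503) and 18.9% (110), and cells high in stab2 alone (stab2-high) were 41.9% (576) and 72.4% (422). Only 21 and 14 cells were high in both (both-high). These shares rest on a sort by EGFP under dab2 sequence, and EGFP RNA (the GFP feature) differed widely over the groups, at 254 CPM in esm1-high against 2224 CPM in stab2-high cells of the library labelled isl1-derived. With the 4 groups weighted equally the library ratio was 1.04 for aqp8a.1 and 0.931 for aqp1a.1. The 21 and 14 both-high cells, with ratios of 0.859 and 0.770, count there as much as any larger group. The value under 1 for aqp1a.1 therefore leans on few cells. Within stab2-high cells alone aqp8a.1 kept a library ratio of 1.52 (1.46 to 1.58), and that of aqp1a.1 was 1.17 (1.13 to 1.21). The medians of aqp8a.1 over these cells, 1.65 and 1.84 UMIs per 10000, ran the other way, and the upper 2 stab2 bins had ratios of only 1.07 and 1.09. lyz, a neutrophil gene, also set the libraries apart in endothelial cells, at 71.3 and 3.11 CPM, and its part in the result was not tested.

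Of the 4 groups, esm1-high cells had the highest level of aqp1a.1 in both libraries, and aqp1a.1 had more UMIs than aqp8a.1 there. In the library labelled isl1-derived aqp1a.1 stood at 16167 CPM in esm1-high, 7558 CPM in both-high, 5282 CPM in both-low and 1964 CPM in stab2-high cells. The order in the library labelled other was the same, at 16529, 9811, 5250 and 1680 CPM. None of these intervals overlapped within a library, but they leave out the spread between cells. In the 21 and 14 both-high cells, 3 cells gave 29.1% and 45.5% of the aqp1a.1 UMIs. By UMIs aqp1a.1 was the 3rd most abundant of all genes in esm1-high cells of the library labelled isl1-derived and number 2 in those of the library labelled other. Among single esm1-high cells it ran from 0 through a median of 182 to 457 UMIs per 10000 in the library labelled isl1-derived and from 44.6 through 175 to 297 in the library labelled other. In stab2-high cells the medians were 2.86 and 3.75, yet the highest cells reached 214 and 193, so single cells of the groups overlapped.

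The gene aqp8a.1 was ordered differently. Its level was 10642 CPM in esm1-high, 3982 CPM in both-high, 8183 CPM in both-low and 1717 CPM in stab2-high cells of the library labelled isl1-derived. Those of the library labelled other had 8969, 4637, 8831 and 1133 CPM. So the sums of both-low cells, with little esm1 and little stab2, were close to those of esm1-high cells in the library labelled other. In the library labelled isl1-derived they were lower, at 8183 against 10642 CPM. The 21 and 14 both-high cells held less than either group. Single-cell medians of aqp8a.1 were 89.98 and 53.8 UMIs per 10000 in esm1-high, 56.7 and 40.0 in both-low, and 1.65 and 1.84 in stab2-high cells. The both-high values rest on few cells, since 3 cells gave 51.3% and 62.2% of their aqp8a.1 UMIs.

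Set as ratios, esm1-high cells exceeded stab2-high cells 6.20-fold (6.04 to 6.36) in aqp8a.1 and 8.23-fold (8.05 to 8.42) in aqp1a.1 in the library labelled isl1-derived. The library labelled other gave 7.92-fold (7.49 to 8.36) and 9.84-fold (9.43 to 10.3). Both genes were past 1.5-fold here, as were 12.1% of 6799 measured genes in the library labelled isl1-derived and 14.8% of 4303 in the library labelled other. Ratios at least as large as that of aqp1a.1 were found for 0.574% and 0.209% of these genes. Against both-low cells aqp1a.1 was again higher in esm1-high cells, 3.06-fold (3.01 to 3.11) and 3.15-fold (3.01 to 3.29). For aqp8a.1 this ratio was 1.301 (1.28 to 1.32) and 1.02 (0.966 to 1.07), short of 1.5 in both libraries, so 1 of the 2 genes was past that ratio, beside 10.7% of 6458 and 13.3% of 1402 genes. Both-low over stab2-high cells gave 4.77 and 7.79 for aqp8a.1 and 2.69 and 3.13 for aqp1a.1.

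The balance of the pair therefore shifted between the groups. For each aqp8a.1 UMI there were 1.52 aqp1a.1 UMIs (1.495 to 1.54) in esm1-high cells and 0.645 (0.635 to 0.656) in both-low cells of the library labelled isl1-derived, while the library labelled other gave 1.84 (1.75 to 1.95) and 0.595 (0.571 to 0.619). In stab2-high cells it was 1.14 and 1.48, and in both-high cells 1.90 and 2.12. Thus esm1-high cells supplied 52.2% of the endothelial aqp1a.1 UMIs but 35.5% of the aqp8a.1 UMIs in the library labelled isl1-derived, and both-low cells 32.1% and 51.3%. In the library labelled other, with fewer such cells, esm1-high cells supplied 27.1% and 16.3%, both-low cells 27.6% and 51.6%, and stab2-high cells 36.5% and 27.4%. The scatter of both genes over single cells shows this as a shift off the diagonal.

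**Figure D1:**
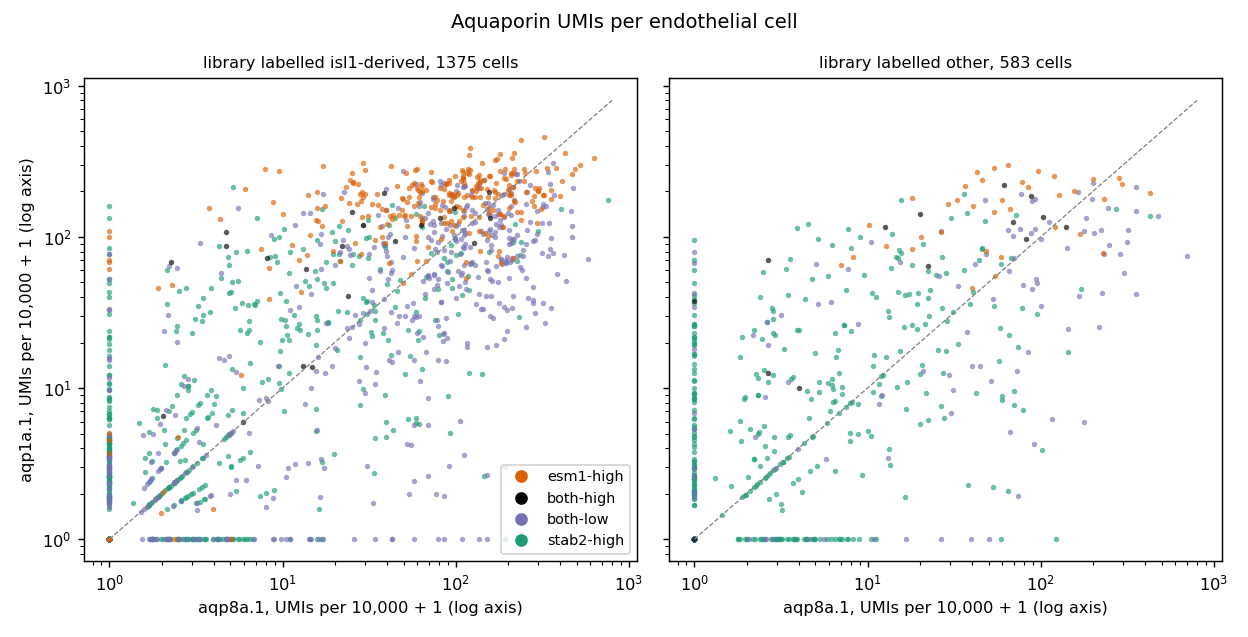
Each point is an endothelial cell, with aqp8a.1 (x axis) and aqp1a.1 (y axis) as UMIs per 10000 plus 1 on log axes, in the library labelled isl1-derived (left, 1375 cells) and the library labelled other (right, 583 cells), coloured by esm1 and stab2 group, with the diagonal of equal values dashed. Most esm1-high cells sit at the top and above the diagonal, both-low cells reach as far right but lie lower, and stab2-high cells spread from 0 upward in both genes.

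Other marks moved with these groups, and their part in the aquaporin difference was not tested. Over the library labelled isl1-derived, the muscle list (5 of 5 genes detected in both groups) summed to 42.9 CPM in esm1-high and 158 CPM in stab2-high cells, and the mesenchyme list (4 of 5 and 5 of 5, with pdgfra at 0 in esm1-high cells) to 25.6 and 118 CPM. The lymphatic list of prox1a, lyve1b and cdh6 summed to 30.3 and 1045 CPM, and the mitotic list to 188 and 101 CPM. Most of the lymphatic sum was lyve1b, which is also in the venous list below. Over all endothelial cells lyve1b gave 422 of 497 CPM in the library labelled isl1-derived and 626 of 748 CPM in the library labelled other. Blood progenitor genes stood at 49.8 and 62.2 CPM. These marks did not all go the same way in the library labelled other, where muscle genes summed to 34.6 CPM in esm1-high and 275 CPM in stab2-high cells, mesenchyme genes to 60.5 and 68.0 CPM, lymphatic genes to 125 and 948 CPM, and mitotic genes to 17.3 CPM (4 UMIs) and 81.7 CPM. Blood progenitor genes had 17.3 and 26.7 CPM there. The median depth in the library labelled isl1-derived was 7797 and 7443 UMIs and the median mitochondrial share 1.20% and 1.02%.

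Along the esm1 scale aqp1a.1 was higher in each successive bin. Its level was 2867, 6572, 11545 and 18249 CPM in the bins of under 1, 1 to 5, 5 to 20 and at least 20 esm1 UMIs per 10000 of the library labelled isl1-derived, and 1944, 6096, 11995 and 18931 CPM in those of the library labelled other. For aqp8a.1 the same bins gave 4395, 6642, 8310 and 11276 CPM, and 2283, 5644, 5201 and 12390 CPM. The scale of aqp1a.1 was steeper, and aqp8a.1 did not keep an even order in the library labelled other, whose upper bins hold 34 and 17 cells. Along the stab2 scale both genes were lower in each successive bin. There aqp8a.1 stood at 10069, 7164, 2743 and 754 CPM in the library labelled isl1-derived and at 10954, 7885, 2569 and 695 CPM in the library labelled other. For aqp1a.1 the levels were 9981, 7395, 3178 and 1157 CPM, and 8557, 7633, 3676 and 1257 CPM.

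**Figure D2:**
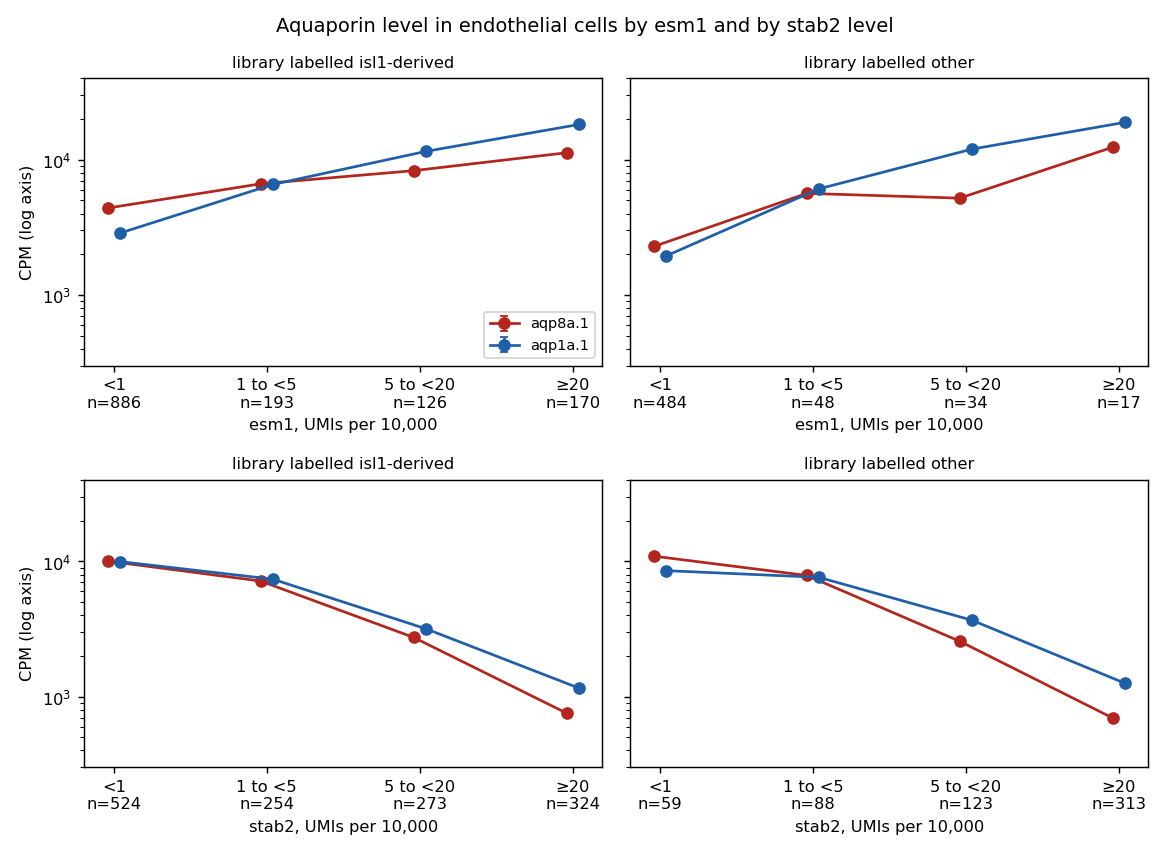
Level of aqp8a.1 and aqp1a.1 in endothelial cells (CPM, log axis) by bin of esm1 (top) and of stab2 (bottom), in UMIs per 10000, for the library labelled isl1-derived (left) and the library labelled other (right); points are sums over the cells counted under each bin, with 95% exact Poisson intervals that are mostly smaller than the points. The aqp1a.1 line climbs more steeply with esm1, from 2867 to 18249 CPM on the left, and the aqp8a.1 line drops further with stab2, to 754 and 695 CPM.

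Since esm1 and stab2 seldom go together, the 2 scales were also crossed. With stab2 held under 1 in the library labelled isl1-derived, aqp1a.1 went through 5164, 7549, 12434 and 18715 CPM as esm1 increased over the 4 bins, whereas aqp8a.1 was at 9219, 10163, 9291 and 12035 CPM. In those cells the aqp1a.1 to aqp8a.1 ratio was 0.560, 0.743, 1.34 and 1.56. With stab2 at 1 to 5 the aqp1a.1 levels were 3750, 6683, 13192 and 17590 CPM and those of aqp8a.1 were 6238, 6588, 9510 and 9674 CPM. Held at esm1 under 1, aqp8a.1 was 9219, 6238, 2396 and 777 CPM over the 4 bins of stab2, and aqp1a.1 was 5164, 3750, 2079 and 972 CPM. The level of aqp8a.1 thus spanned a wider range with stab2 than with esm1, and that of aqp1a.1 differed with both.

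**Figure D3:**
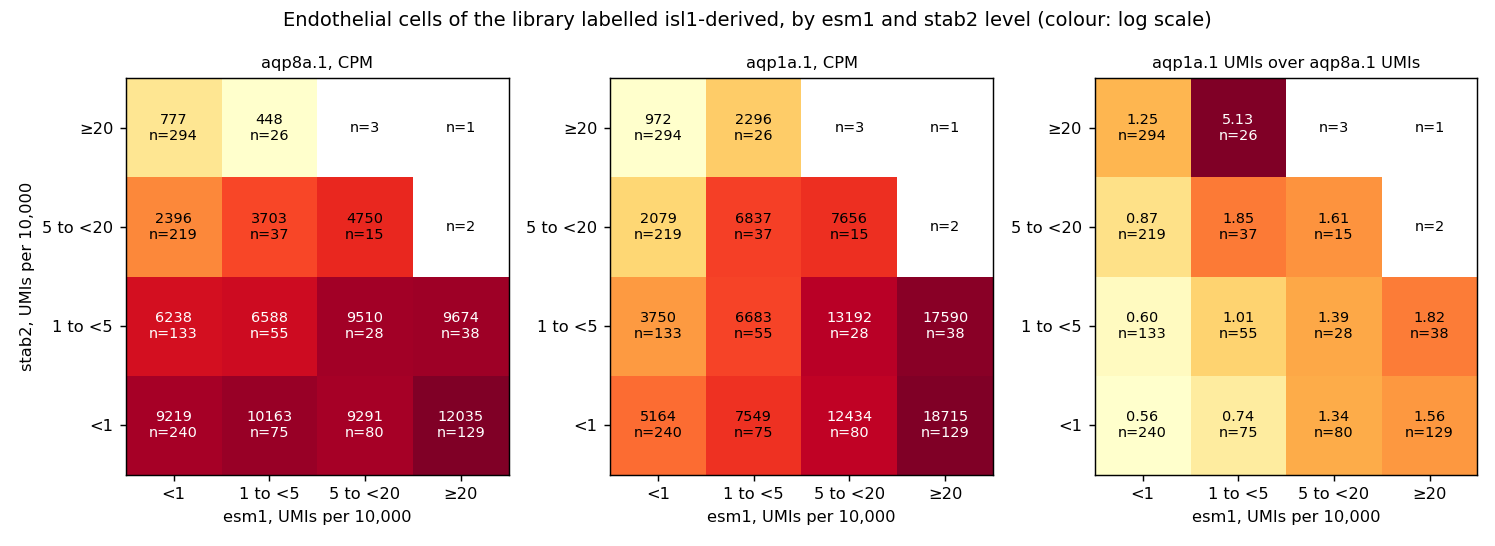
Endothelial cells of the library labelled isl1-derived crossed by esm1 (x axis) and stab2 (y axis), both in UMIs per 10000, showing aqp8a.1 CPM (left), aqp1a.1 CPM (middle) and aqp1a.1 UMIs over aqp8a.1 UMIs (right); colour is on a log scale within each panel and fields with under 10 cells are left white. Colour in the left panel changes mainly from bottom to top, while in the middle panel it changes in both directions, with 18715 CPM at the lower right.

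The library labelled other had few cells in most fields of this crossing, and its values there differed from those above by varying amounts. Its 34 cells with under 1 of both genes had 10646 CPM of aqp8a.1 and 3760 CPM of aqp1a.1, a ratio of 0.353, with 46.2% of the aqp8a.1 UMIs in 3 cells. The 10 cells with at least 20 esm1 and under 1 stab2 UMIs per 10000 had 11798 and 15962 CPM, a ratio of 1.35, with 47.1% of the aqp8a.1 UMIs in 3 cells. At esm1 of 5 to 20 and stab2 of 1 to 5, the 9 cells had 3837 CPM of aqp8a.1, under the 9510 CPM of the 28 such cells in the library labelled isl1-derived. In the 292 cells at the opposite corner, with at least 20 stab2 and under 1 esm1 UMIs per 10000, the levels were 573 and 975 CPM, a ratio of 1.70. The 294 such cells of the library labelled isl1-derived had 777 and 972 CPM, a ratio of 1.25, with 39.6% of their aqp8a.1 UMIs in 3 cells.

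Most endothelial cells with a UMI of either aquaporin had both. Of endothelial cells in the libraries labelled isl1-derived and other, 72.7% (exact binomial interval 70.2% to 74.996%) and 60.2% (56.1% to 64.2%) had both, 7.49% and 10.8% had aqp8a.1 alone, 11.1% and 15.6% had aqp1a.1 alone, and 8.73% and 13.4% had neither. At a fixed 2000 UMIs per cell (62 and 30 cells were shallower and left out) both genes were found in 57.9% and 43.8%, where the product of their separate shares is 46.3% and 33.6%. Requiring 5 UMIs per 10000 of each gene left 53.8% and 38.1% of cells with both. Blood progenitors, described below, had a UMI of both in 60.5% and 42.9% of cells at their greater depth, so single UMIs in deep cells are not read as co-expression. At 2000 UMIs per cell both genes were found in 92.9% and 100% of esm1-high, 67.2% and 67.3% of both-low and 31.2% and 31.7% of stab2-high cells, against 2.09% of blood progenitors in the library labelled isl1-derived and 1 of 40 in the library labelled other. The product of the separate shares at that depth is 90.8% and 100% in esm1-high, 58.0% and 59.2% in both-low and 21.2% and 23.4% in stab2-high cells. In esm1-high cells the shares with both genes were thus close to what the separate shares give. The unthinned shares of cells with both genes were 95.3% and 100% in esm1-high, 81.1% and 75.5% in both-low and 53.5% and 51.9% in stab2-high cells.

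Over endothelial cells the 2 genes went together, with a Pearson r of 0.771 (Spearman 0.742) over 1375 cells of the library labelled isl1-derived and 0.654 (0.629) over 583 cells of the library labelled other, on the natural log of UMIs per 10000 plus 1. Cells of a library share its depth and free RNA, so these values describe the libraries. Thinning gave 0.732 and 0.620. The relation also held within groups, at a Pearson r of 0.661 and 0.431 in esm1-high, 0.739 and 0.603 in both-low and 0.646 and 0.516 in stab2-high cells. Spearman values there were 0.475 and 0.425 in esm1-high, 0.681 and 0.635 in both-low and 0.594 and 0.491 in stab2-high cells. In esm1-high cells the thinned Spearman values were lower, at 0.395 and 0.314. In blood progenitors the unthinned Pearson r was 0.186 (Spearman -0.017) and -0.017 (Spearman -0.099). Thinned, it was 0.068 (Spearman 0.022) and, over 40 cells of the library labelled other, 0.286 (Spearman 0.299).

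Blood progenitors of the tail, where the haematopoietic stem and progenitor cells of the embryo lodge, held only traces of either gene. They were taken as non-endothelial cells with at least 5 UMIs per 10000 over myb, runx1, gata2b, ptprc, coro1a, laptm5 and spi1b, which gave 483 and 42 cells in the libraries labelled isl1-derived and other. There aqp8a.1 stood at 74.7 CPM (70.0 to 79.6) and 66.5 CPM (50.2 to 86.4), and aqp1a.1 at 79.3 CPM (74.4 to 84.3) and 73.6 CPM (56.5 to 94.4). Endothelial cells were thus 79.7-fold and 45.8-fold higher in aqp8a.1, and 77.5-fold and 46.0-fold higher in aqp1a.1. Where the low level is background, such a fold is a lower limit. Its size rests on few UMIs in the library labelled other, where thinning to 2000 UMIs per cell gave 256-fold (46.0 to 10125, with 1 UMI left in blood progenitors) for aqp8a.1 and 28.3-fold (15.4 to 59.1) for aqp1a.1. A UMI of aqp8a.1 was found in 80.1% and 71.0% of endothelial cells, whose median depths were 7925 and 6433 UMIs, and still in 76.6% and 57.1% of blood progenitors, at 26335 and 21283 UMIs. At 2000 UMIs per cell aqp8a.1 was found in 65.8% and 54.2% of endothelial cells, against 13.8% of blood progenitors in the library labelled isl1-derived and 1 of 40 in the library labelled other.

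Cells of unrelated types had like traces. The 20 epidermal cells of the library labelled isl1-derived had 77.0 CPM of aqp8a.1 and 87.5 CPM of aqp1a.1, and its 12 mesenchymal cells 81.6 and 71.4 CPM. The 24 neural cells of the library labelled other had 82.6 and 61.9 CPM. For each aqp8a.1 UMI there were 1.03 aqp1a.1 UMIs (1.02 to 1.04) in endothelial cells and 1.06 (0.970 to 1.16) in blood progenitors of the library labelled isl1-derived. The library labelled other had 1.11 (1.09 to 1.14) and 1.11 (0.759 to 1.62). Free RNA gives such low levels in droplet data, but its level was not measured here, so the aquaporin UMIs of blood progenitors cannot be told from background and are not read as expression. The summed aqp1a.1 level of erythroid (5) and myeloid (21) cells of the library labelled isl1-derived was above that of these types. It was 2.40 times (1.65 to 3.40) and 3.92 times (3.34 to 4.58) the blood progenitor level. In each class 3 cells gave most of the UMIs, at 87.9% and 78.5%. The myeloid median was not raised, at 0.595 aqp1a.1 UMIs per 10000 against 0.612 in blood progenitors, so the myeloid excess rests on few cells. The erythroid median was 2.48. Cells matching no list (95 and 29) had higher sums than blood progenitors, at 590 and 323 CPM of aqp8a.1 and 520 and 302 CPM of aqp1a.1. Among them 3 cells gave 51.6% and 69.4% of the aqp8a.1 UMIs and 43.9% and 69.0% of the aqp1a.1 UMIs. Their medians were 1.20 and 0 UMIs per 10000 of aqp8a.1 and 1.01 and 0 of aqp1a.1. The endothelial markers summed to 1239 and 1390 CPM in these cells, against 446 and 574 CPM in blood progenitors.

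**Figure D4:**
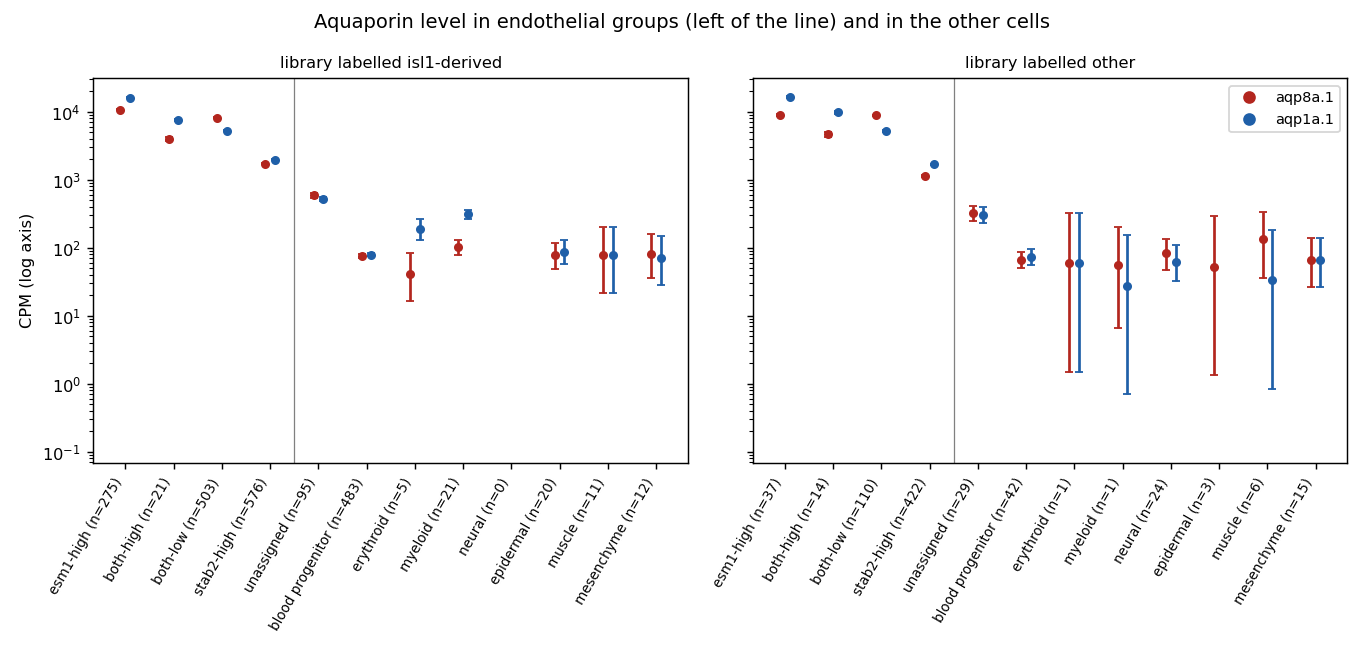
Level of aqp8a.1 and aqp1a.1 (CPM, log axis, sums over the cells counted under each name, 95% exact Poisson intervals) in the 4 endothelial groups, left of the line, and in the other cell classes, for the library labelled isl1-derived (left) and the library labelled other (right); a class without cells, or a gene at 0 UMIs, has no point. Endothelial groups lie between 1133 and 16529 CPM, blood progenitors between 66.5 and 79.3 CPM, and aqp1a.1 stands above aqp8a.1 in the erythroid and myeloid cells of the left panel.

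Among cells of the library labelled isl1-derived that scored for blood progenitor genes, summed levels were higher where the endothelial score was at least 5, with most UMIs in few cells. With an endothelial score under 1, 1 to 5, 5 to 10, 10 to 20 and at least 20 UMIs per 10000, the 377, 81, 24, 27 and 17 such cells of the library labelled isl1-derived had 63.6, 86.3, 275, 1540 and 1663 CPM of aqp8a.1. Their aqp1a.1 stood at 66.0, 96.6, 307, 1371 and 1346 CPM. In the bins from 5 up, 3 cells gave 74.6%, 50.4% and 82.1% of the aqp8a.1 UMIs. Medians over cells were 0.602, 0.514, 0.839, 5.39 and 2.999 UMIs per 10000 of aqp8a.1 and 0.612, 0.555, 0.890, 2.40 and 2.46 of aqp1a.1. The single cells thus did not keep the order of the sums, but both medians were higher from a score of 10 up. In the library labelled other the 30 and 9 cells of the lowest 2 bins had 52.1 and 45.3 CPM of aqp8a.1 and 57.2 and 45.3 CPM of aqp1a.1, and the bins above hold 2 to 5 cells. The 44 and 7 endothelial cells that also scored for blood progenitor genes had 1577 and 669 CPM of aqp8a.1 and 1363 and 287 CPM of aqp1a.1, under the endothelial levels of both libraries. Undetected doublets could give cells with both scores, and this was not tested.

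**Figure D5:**
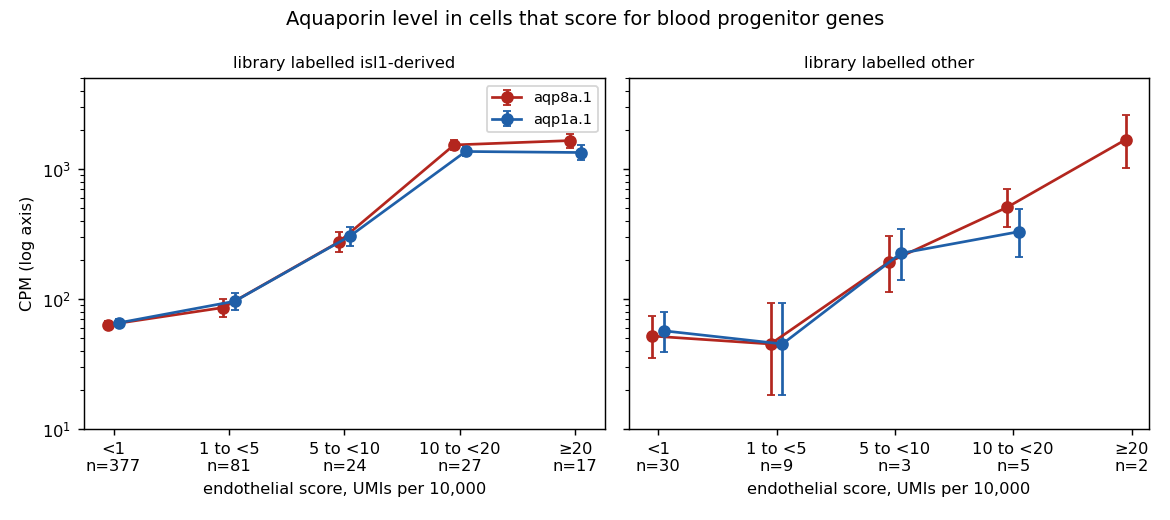
Level of aqp8a.1 and aqp1a.1 (CPM, log axis, 95% exact Poisson intervals) in cells scoring for blood progenitor genes, by bin of the endothelial score (cdh5, tie1, egfl7 and clec14a, UMIs per 10000), for the library labelled isl1-derived (left) and the library labelled other (right); aqp1a.1 has no point in the last bin on the right, where 2 cells held 0 UMIs. Both genes stand at 63.6 and 66.0 CPM in the lowest bin on the left and at 1663 and 1346 CPM in the highest.

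The genes most like each aquaporin over endothelial cells were ranked by the lower Pearson r of the 2 libraries among 5691 genes, whose median r lay between 0.00821 and 0.0323. For both members the most similar gene was the other aquaporin. For aqp8a.1 there followed adrb3a, a beta adrenergic receptor gene (0.679 in the library labelled isl1-derived and 0.608 in the library labelled other), flt1, a decoy VEGF receptor gene (0.644 and 0.556), icn, a calcium-binding protein gene (0.543 and 0.590), and cavin1b, a caveolar coat gene (0.561 and 0.522). After these came the secreted factor gene ndnf, limch1b and the growth factor gene vegfc, at a lower r of 0.487 to 0.495. For aqp1a.1 there followed limch1b (0.619 and 0.570), adrb3a (0.655 and 0.553), esm1 itself (0.565 and 0.508), flt1 (0.639 and 0.467) and igfbp1a, an insulin-like growth factor binding protein gene (0.561 and 0.461). The RNA-binding protein gene rbpms2b and dll4, the Notch ligand of tip cells, completed the leading 8 with a lower r of 0.456 to 0.460. Of the leading 15 of each aquaporin, 8 were shared.

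At the other end stood genes of venous and scavenging endothelium. Against aqp8a.1 they were the hyaluronan receptor gene lyve1b (-0.638 and -0.503), the lysosomal protease gene lgmn (-0.598 and -0.539), stab2 (-0.594 and -0.561) and the mannose receptor gene mrc1a (-0.580 and -0.548). Against aqp1a.1 they were dab2 (-0.576 and -0.524), lgmn (-0.569 and -0.550), lyve1b (-0.553 and -0.429) and the selenium transport gene selenop (-0.524 and -0.427). Some genes told the members apart. With vegfc, r was 0.487 and 0.519 for aqp8a.1 and 0.253 and 0.320 for aqp1a.1. With the ephrin gene efnb2a it was 0.450 and 0.362 for aqp8a.1 and 0.330 and 0.1995 for aqp1a.1. With esm1 it was 0.399 and 0.399 for aqp8a.1, under the values for aqp1a.1 given above.

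Water passes through aquaporins along osmotic gradients that ion transporters set up, so a list of 22 genes of ion transport and volume regulation was read beside them. Between esm1-high and stab2-high cells of the library labelled isl1-derived, 7 of its 18 measured members were at least 1.5-fold higher and 3 at least 1.5-fold lower, beside 12.1% and 17.2% of all genes. Its median log2 ratio was 0.18, against 0.03 over all genes. The sodium, potassium and chloride cotransporter gene slc12a2 stood at 290 CPM in esm1-high and 143 CPM in stab2-high cells (ratio 2.04, 1.83 to 2.27), and in the library labelled other at 398 and 143 CPM (2.77, 2.19 to 3.48). The volume-regulated anion channel subunit gene lrrc8db stood at 101 and 35.7 CPM (ratio 2.84), and the sodium pump subunit gene atp1b1a at 303 and 622 CPM (ratio 0.487). The potassium and chloride cotransporter gene slc12a7b was lower still in esm1-high cells, at 7.36 and 65.8 CPM (ratio 0.112). Of the whole list, slc12a2 went most closely with aqp1a.1 over cells, with r of 0.434 and 0.422.

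In the library labelled other 11 members of this list were measured, of which 2 were at least 1.5-fold higher and 3 at least 1.5-fold lower, beside 14.8% and 23.2% of all genes. Set against both-low cells, it had 5 higher and 2 lower of 18 in the library labelled isl1-derived, beside 10.7% and 8.95%. Between the libraries 0 of 18 members were higher and 1 was lower, beside 5.13% and 7.77%, with slc12a2 at 193 and 189 CPM. So the list as a whole did not follow the aquaporins between libraries.

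The arterial list, with 12 of 17 members at least 1.5-fold higher and 1 lower in the library labelled isl1-derived, ran parallel to the aquaporins in that contrast (median log2 ratio 0.69, against -0.06 over all genes). The background there was 5.13% of all genes higher and 7.77% lower. Between esm1-high and stab2-high cells of that library 12 of 15 were higher and 1 lower, beside 12.1% and 17.2% of all genes. There flt1 stood at 836 and 126 CPM (ratio 6.66, 6.07 to 7.31), dll4 at 512 and 68.9 CPM (7.42, 6.56 to 8.42), and the chemokine receptor gene cxcr4a at 427 and 11.2 CPM (38.1, 28.9 to 51.2). Against both-low cells the list split, with 5 of 14 higher and 4 lower, beside 10.7% and 8.95% of all genes. Higher were dll4 (ratio 2.29) and cxcr4a (3.29), as was aqp1a.1, while the connexin gene gja5a (0.437), notch3 (0.498) and vegfc (0.289) were lower in esm1-high cells.

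The venous list went opposite to the aquaporins, with 10 of 14 members at least 1.5-fold lower and 2 higher in esm1-high over stab2-high cells of the library labelled isl1-derived, and 9 lower and 2 higher in the library labelled other. Of all genes 17.2% were lower and 12.1% higher in the first of these contrasts, and 23.2% and 14.8% in the second. It holds stab2 and dab2, which define or follow the groups, so these counts are not independent of the grouping. Between the libraries 8 of 14 were lower and 0 higher, beside 7.77% and 5.13% of all genes. Its most abundant member fabp11a, a fatty acid binding protein gene, stood at 11031 CPM in esm1-high and 4837 CPM in stab2-high cells (ratio 2.28). Of 8 measured VEGF pathway genes 2 were higher and 2 lower, beside 12.1% and 17.2% of all genes, with the receptor gene kdrl at 728 and 310 CPM (ratio 2.35) and nrp2b, a coreceptor gene for VEGF ligands, at 21.7 and 297 CPM (0.0729). The library labelled other had 3 higher and 2 lower of 8 such genes, beside 14.8% and 23.2%.

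Small sets of endothelial cells with other marks were read for the pair as well, defined by at least 2 UMIs per 10000 of prox1a or of the Hox genes below, and by at least 5 of the mitotic list. The 26 and 8 cells with prox1a, the lymphatic transcription factor gene, had 745 and 1111 CPM of aqp8a.1 and 1974 and 2514 CPM of aqp1a.1, but 3 cells gave 57.0% and 94.7% of the aqp8a.1 UMIs and 64.5% and 97.7% of the aqp1a.1 UMIs. The medians over these cells were 0.964 and 2.46 UMIs per 10000 of aqp8a.1 and 0.437 and 1.43 of aqp1a.1, so the order of the members there rests on those few cells. The 99 and 72 cells with the posterior Hox genes hoxb13a, hoxc13a, hoxa13b and hoxd13a had 7208 and 5244 CPM of aqp8a.1 and 10904 and 7774 CPM of aqp1a.1, above the endothelial level of each library. Cells with mitotic genes (85 and 21) had 3798 and 1709 CPM of aqp8a.1 and 5564 and 3023 CPM of aqp1a.1, with 86.7% and 70.4% of the UMIs in 3 cells in the library labelled other.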

How the data were processed

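Live cells sorted from zebrafish tails were run on 10x Genomics Chromium v3.1, a kit that counts molecules by a UMI at the RNA 3′ end, per the labels. The files hold raw UMI counts, deposited as 1 matrix per library. The authors used Cell Ranger with build GRCz11, in version 5.0.0 per the submitters' processing notes and 5.0.1 per the file headers. Features with a shared symbol were summed, which gave 26764 symbols from 27421 features, and 0 columns went unused. The library labelled isl1-derived had 26865577 UMIs in 2072 barcodes, and the library labelled other 5698957 UMIs in 730.

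Barcodes with under 500 genes, or with 10% or more of their UMIs mitochondrial, were dropped (42 and 21), as were 8 and 5 doublets called by Scrublet (scanpy 1.11.5), so undetected doublets remain possible. No clustering was done. Classes other than endothelial cells were given by the highest of 7 marker list scores at 5 or more UMIs per 10000, a limit set after the score distribution was seen. UMIs were summed per library and group of cells and scaled to CPM. Levels carry exact Poisson, shares exact binomial (Clopper-Pearson) and ratios exact conditional binomial intervals, all at 95%. With 1 library per group no test was made. Genes counted as measured had 100 or more UMIs over the 2 sums compared, and were set apart by a ratio of 1.5, which is a size and no call of change. Likeness is Pearson's r over endothelial cells, for genes with a UMI in at least 10% of them in each library.

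The genes named were the aquaporin family, the 8 most and 4 least similar genes to each member, and from each of 4 lists (water and volume regulation, arterial, VEGF pathway, venous) those with most UMIs or the largest ratio, shortened for length. The members, lists and limits were chosen with earlier results of these data known. gja5a, notch3, vegfc and efnb2a between the members or groups, and the cells by other marks, were chosen after their values were seen. Ratio and likeness steps were tested on simulated counts. Feature IDs were matched to gene names for 24988 of 27421. No sequence or coordinate is given, since the gene table used (RefSeq) is of another build and served for gene order alone. Alternatives used other barcode filters, doublets kept, endothelial scores of 5 and 20, thinning to 2000 UMIs, a mean over cells, TMM scaling (edgeR 4.0.16), limits of 2.5 and 10 for a high gene and other minimums of UMIs.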

Additional observations from a re-analysis of the deposited data

How the results depend on the processing

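The ratios and correlation of the members kept their direction under the alternatives run. A share of cells with both genes has no direction to keep, and thinning moved it from 72.7% to 57.9% and from 60.2% to 43.8%. List counts, both-low ratios and the balance of the pair had no alternatives. With a limit of 10 for a high gene, the larger esm1-high over stab2-high ratio in the library labelled other was that of aqp8a.1 and no longer that of aqp1a.1. Weighting the 4 groups equally gave a library ratio of 0.931 for aqp1a.1, in which the 21 and 14 both-high cells count as much as any other group. No paired analysis was possible because each group is 1 library. Fold values for aqp8a.1 and aqp1a.1 follow in that order. The ratio between libraries was 1.91 and 1.77 with an endothelial score of at least 5, 2.07 and 1.95 at 20, 2.04 and 1.94 as a mean over cells, 2.17 and 2.02 with TMM scaling (a shift of 0.15 on the log2 scale), and for aqp1a.1 1.89 when thinned. For esm1-high over stab2-high cells the libraries labelled isl1-derived and other gave 5.22 and 7.71, and 6.46 and 8.52, with 2.5 UMIs per 10000 taken as high, and 9.29 and 10.7, and 10.8 and 10.6, with 10. An endothelial score of 20 gave 7.65 for aqp1a.1, and 7.32 and 9.23 in the library labelled other. In the library labelled isl1-derived this ratio was 6.03 for aqp8a.1 with called doublets kept, 6.39 and 8.49 with a score of 5, 7.43 and 9.55 when thinned, 7.01 and 9.39 as a mean over cells. Thinning and the mean over cells gave 9.03 and 8.71 for aqp8a.1 in the library labelled other. Subtracting the blood progenitor level, chosen after seeing the data, gave 6.43 and 8.54. Endothelial over blood progenitor cells of the library labelled isl1-derived gave 70.9 and 67.1 with doublets kept, 58.3 and 61.9 with a score of 20, and 94.9 and 96.2 with a blood list of at least 10, also chosen after seeing the data. For aqp8a.1 in the library labelled other the last 2 were 32.3 and 34.6. Thinned, that library gave 256 (46.0 to 10125, on 1 UMI) and 28.3, so the size of this fold depends on the setting. The share of genes past 1.5 in the library contrast was 19.5% at a minimum of 30 UMIs, against 12.9%. With 1 library per group, 37 esm1-high cells and 66.5 to 79.3 CPM of either gene in blood progenitors, levels near that cannot be told from free RNA, and differences between the libraries cannot be told apart from differences of preparation. The causes of these shifts were not tested.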

Other observations

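Some endothelial cells held much of a single aquaporin, at least 20 UMIs per 10000 of it and under 5 of the other, limits chosen after the values were seen. There were 63 and 49 such cells for aqp1a.1 in the libraries labelled isl1-derived and other, and 35 and 13 for aqp8a.1. Over the 2056 genes compared, marcksl1a, a gene of actin regulation, stood at 3813 CPM in cells with aqp1a.1 alone and 828 CPM in cells with aqp8a.1 alone of the library labelled isl1-derived, and at 3762 and 689 CPM in the library labelled other. The same order held for igfbp1a (870 and 208 CPM, then 712 and 0 CPM) and for flt4, a receptor gene for Vegfc (443 and 79.9 CPM, then 720 and 153 CPM). The opposite order was found for icn, with 331 CPM in cells with aqp1a.1 alone and 5901 CPM in cells with aqp8a.1 alone, then 260 and 7940 CPM in the library labelled other. Likewise the ephrin gene efnb2a stood at 42.2 and 254 CPM, then 23.1 and 284 CPM, and cyp26b1, a retinoic acid degrading enzyme gene, at 36.4 and 288 CPM, then 17.4 and 306 CPM. The haemogenic endothelium gene gata2b was at 0 CPM in cells with aqp1a.1 alone and 85.6 CPM in cells with aqp8a.1 alone, then 0 and 54.7 CPM, and runx1, needed for blood stem cell emergence, at 5.75 and 62.8 CPM, then 2.89 and 54.7 CPM. In endothelial cells with under 5 of both aquaporins, gata2b and runx1 stood at 21.3 and 30.5 CPM, then 11.2 and 7.89 CPM. With at least 20 of both they stood at 8.67 and 6.25 CPM, then 3.42 and 6.84 CPM. The median endothelial score was 36.1 with aqp1a.1 alone and 23.3 with aqp8a.1 alone, then 37.8 and 33.3. Of the cells with aqp1a.1 alone 9 of 63 and 0 of 49 were esm1-high, and of those with aqp8a.1 alone 0 of 35 and 0 of 13, where 275 of 1375 and 37 of 583 endothelial cells are esm1-high. Most cells with aqp8a.1 alone were both-low (25 and 7), whereas most with aqp1a.1 alone were stab2-high (40 and 38). Their stab2 stood at 1780 CPM with aqp1a.1 alone and 534 CPM with aqp8a.1 alone, then at 2711 and 1159 CPM. The gene differences above were thus not separated from the stab2 level of the cells. The genes above were picked by size in these same cells, except gata2b, runx1 and myb, which were chosen by name. The gata2b, runx1 and myb values of the library labelled other rest on few UMIs, with 13 cells holding aqp8a.1 alone. None of these genes has a test.

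A few blood cells outside the progenitors had aqp1a.1 with little aqp8a.1. Of the 5 cells that scored as erythroid in the library labelled isl1-derived, 3 held 10, 10 and 9 aqp1a.1 UMIs and 1, 0 and 2 aqp8a.1 UMIs, and over all 5 cells the levels of aqp1a.1 and aqp8a.1 were 191 CPM (131 to 268) and 40.4 CPM (16.2 to 83.3). In the 21 myeloid cells the levels were 311 and 101 CPM, but 1 cell gave 122 of the 191 aqp1a.1 UMIs, along with 31 aqp8a.1, 9 cdh5 and 10 esm1 UMIs, and another gave 22. Whether these are doublets was not tested.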
